A study of Mus musculus with 35 samples.

Results

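Livers lacking the E2F transcription factors E2f1, E2f2 and E2f3 were compared with wild-type livers in mice aged 2 months. The comparison used 5 of the 35 arrays of the series. The 3 knockout arrays were those labelled 123KO, replicates 1 to 3, and the 2 wild-type arrays were replicates 4 and 5, which were the wild-type arrays found in the same normalization run. The values were log2 signals, on which a difference of 1 is a doubling, for 18193 genes with 1 probe set each.

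The series measured liver RNA on Affymetrix arrays to compare losses of E2F family members. The knockout mice carried Mx1-Cre with E2f1-/-, E2f2-/- and E2f3loxp/loxp, on a mixed C57B/L6 and FVB background. The wild-type mice were FVB, and their labels name no Cre. By these labels E2f1 and E2f2 are lost in every cell of the knockout mice, while E2f3 is removed where Mx1-Cre was active. Genotype, Cre line and strain background differed together between the groups and cannot be told apart. The E2f7/E2f8 knockout at the same age (4 arrays, FVB, Albumin-Cre with E2f7loxp/loxp and E2f8loxp/loxp), set against wild-type replicates 1 to 3 of its own run, served as a second comparison.

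Most E2F proteins bind DNA with a DP partner, and the family controls genes of S phase entry. E2F1, E2F2 and E2F3 are grouped as activators: they are held inactive by the retinoblastoma protein, and when released they raise transcription of genes for nucleotide synthesis, origin licensing and DNA replication. E2F7 and E2F8 are repressors that act without DP partners or pocket proteins. Adult hepatocytes are mostly out of the cell cycle and many are polyploid. The Mx1 promoter is switched on by interferon, and in such mice it is known to act in liver as well as in blood-forming cells.

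The 3 knockout arrays were not alike. Over all genes, knockout replicates 1 and 2 correlated with an r of 0.997, and knockout replicate 3 with these at 0.987. The wild-type arrays correlated at 0.993, and pairs of 1 knockout and 1 wild-type array between 0.981 and 0.994. Knockout replicate 3 was the knockout array farthest from wild type for 68% of the called genes and for 46% of all genes. The median within-group SD of a gene was 0.13 log2 in the knockout and 0.10 in wild type. Hepatocyte markers, 12 measured, had list means of 14.23 to 14.26 log2 in the 5 arrays. The 3' minus 5' signal of control Gapdh, which rises as RNA degrades, was 0.31, 0.40 and 0.27 log2 in the knockout and 0.36 and 0.55 in wild type. Results that change when a single array is left out are given with the values without it, where KO3 stands for knockout replicate 3 and WT4 for wild-type replicate 4, and so on. A call lost "without KO3, WT4 or WT5" was lost when any one of these was left out.

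Of 18193 genes, 597 (3.28%) passed the test at a Benjamini-Hochberg adjusted p under 0.05 in limma, 311 higher (1.71%) and 286 lower (1.57%) in the knockout. All genes that pass are called higher or lower below. The median absolute difference of the 597 was 0.61 log2, and 120 of them differed by over 1 log2, 64 higher and 56 lower. For comparison, the 5th and 95th percentiles of the difference over all genes were -0.35 and 0.35 log2. The 3 knockout arrays lay beyond both wild-type arrays in 587 of the 597, against 26.4% of all genes. The calls were made from these same arrays, so this count describes the called genes and is no separate support. In 354 of the 597 they also lay beyond all 17 other arrays of the age, against 10.3% of all genes. Of these 213 lay above, against 5.7% of all genes, and 141 below, against 4.62%. That second count also includes both wild-type arrays of the comparison. It moves with the normalization run too, since 15 of the 17 arrays were in the other run.

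The count of 597 rests on a spread estimated over all 35 arrays. With the spread taken from the 5 arrays alone, 4 genes were called, all higher: Dclre1a, Gm6958, Marco and Rarb, while 1463 had an unadjusted p under 0.05. Without KO3 there were 362 calls and without WT5 there were 245, of which 265 and 179 were among the 597. The labels do not say that each array is a separate animal, so the p-values measure spread between samples. That spread, like each SE given below, was taken within groups over all 35 arrays and not from the 5 arrays read. From the 5 arrays alone the SE was larger for some genes, such as Slco1a1 (1.39 against 0.65) and Tafa2 (0.47 against 0.23). It was smaller for others, such as Orm2 (0.44 against 0.71). In whole liver, fewer cells of a type and less RNA per cell cannot be told apart.

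**Figure D1:**
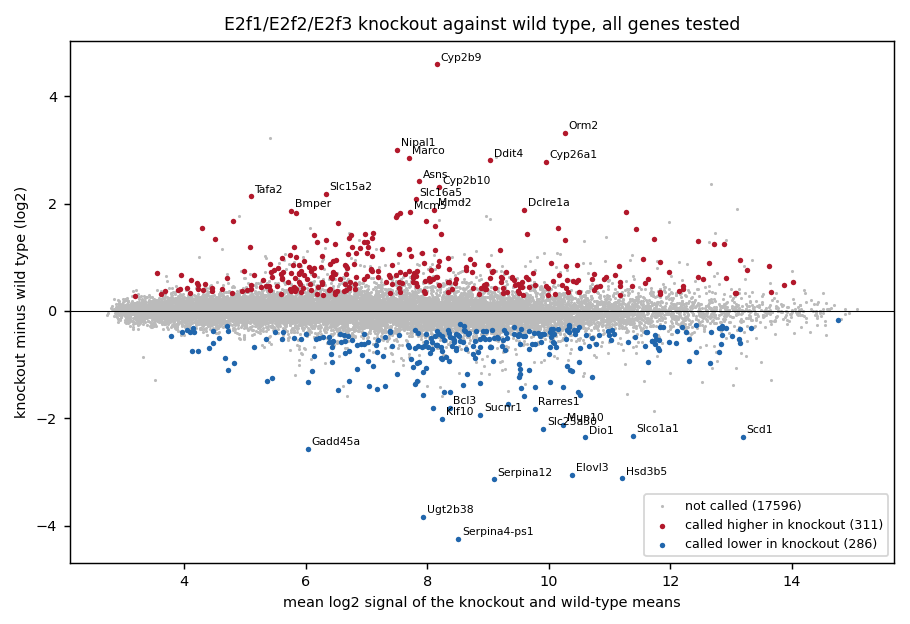
Difference between the knockout and wild-type means (log2, vertical) against the mean signal of both groups (log2, horizontal) for all 18193 genes. The 311 genes called higher and the 286 called lower lie at all signal levels, with Cyp2b9 the highest and Serpina4-ps1 the lowest of the named points.

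The targeted genes showed no loss of signal. E2f1 read 6.39, 6.36 and 6.58 log2 in knockout replicates 1 to 3 and 6.24 and 6.41 in wild-type replicates 4 and 5. E2f2 read 7.01, 7.16 and 6.62 against 6.75 and 6.80, and E2f3 read 7.71, 7.72 and 7.95 against 7.63 and 7.76. The groups overlapped for all 3 genes. Their differences were 0.11, 0.15 and 0.10 log2 (SE 0.14 to 0.15, limma adjusted p from 0.69 to 0.82). The sources used here do not give which exons the probes cover, so these values check neither the deletions nor the labels. The submitters' design text states that deletion was checked by genotyping of DNA.

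Among the other E2F genes, none was called. The repressor E2f8 read 5.74, 5.32 and 5.56 log2 in the knockout and 6.50 and 6.19 in wild type, all knockout arrays being lower (difference -0.80, SE 0.42, limma adjusted p = 0.35). E2f7, the other repressor of this type, differed by -0.01 log2 (SE 0.18) and E2f5 by 0.21 (SE 0.12). Of the 18 E2F and pocket protein genes 1 was called (5.56%, against 3.28% of all genes). This was Rbl1, which encodes the pocket protein p107 and is itself a known E2F target. Rbl1 read 6.22, 5.74 and 7.23 in the knockout and 5.06 and 5.36 in wild type. It rose by 1.19 log2 (SE 0.25, limma adjusted p = 0.00615) and lost its call without WT4.

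Among genes of the G1/S transition that E2F activates, 7 rose in the knockout and 30 did not pass the test. Of 37 measured, 29 had a higher mean in the knockout and the list's median difference was 0.46 log2, against 0.00 over all genes. Calls were made for 7 (18.9%), all higher, against 1.71% of all genes tested. All 3 knockout arrays lay above both wild-type arrays for 21 of the 37, against 13.2% of all genes.

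The called genes act in origin licensing, replication and the replication checkpoint. Mcm5, a subunit of the replicative helicase, read 7.79, 7.84 and 10.29 log2 in the knockout and 6.73 and 6.89 in wild type, a rise of 1.83 (SE 0.50, limma adjusted p = 0.0383). Brca1, a factor of homologous recombination, read 6.68, 6.95 and 8.44 against 5.31 and 6.12, a rise of 1.64 (SE 0.31, limma adjusted p = 0.00192). Chek1, the checkpoint kinase, read 4.01, 4.39 and 6.80 against 3.52 and 3.52, a rise of 1.55 (SE 0.41, limma adjusted p = 0.03). In these 3 genes the groups did not overlap, and KO3 stood well above replicates 1 and 2. Cdt1, which loads the helicase at origins, rose by 1.03 log2 (SE 0.28) and Prim1, the catalytic subunit of primase, by 1.02 (SE 0.28). The other called members, Mcm2 (1.15 log2) and Gins1 (0.76), were named after their values were seen. Among members also chosen after their values were seen, Mcm6 (1.69), Mcm3 (0.99) and Rrm1 (0.84) had adjusted p-values between 0.053 and 0.0812 in limma and were not called. Rrm2 (-0.51), Mcm10 (-0.60) and Tyms (-0.14) were also not called.

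The size of this shift differed between the knockout arrays. The median difference of the 37 genes from the wild-type mean was 0.21, 0.20 and 0.80 log2 in knockout replicates 1, 2 and 3, and replicate 3 was the highest of the 3 in 30 of the 37. Without KO3 the list's median was 0.24 and 1 member was called, as was 1 without WT4 and 1 without WT5. The calls of Mcm5, Chek1 and Cdt1 were lost without KO3, WT4 or WT5, that of Prim1 without KO3 or WT5, and that of Brca1 without WT4.

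Promoters were searched for the E2F motif because the list is of E2F targets. The motif was TTCCCGC, the variant TTCGCGC, the variant TTGCCGC or the variant TTGGCGC, on either strand in the 250 bases before the start of the gene, in RefSeq promoters of build GRCm38.p6. It was found in 43.3% of the 30 G1/S promoters available, in 13.3% of the promoters of all 14452 genes tested with one, in 13.3% of 248 for genes called higher and in 13.2% of 219 for genes called lower. Among called genes of cell cycle and pocket proteins, matches were found for Mcm5 (chr8:75109259-75109508, plus strand), Prim1 (chr10:128014965-128015214, plus strand) and Rbl1 (chr2:157204535-157204784, minus strand), shown here 5' to 3' with the matches in capitals.
Mcm5: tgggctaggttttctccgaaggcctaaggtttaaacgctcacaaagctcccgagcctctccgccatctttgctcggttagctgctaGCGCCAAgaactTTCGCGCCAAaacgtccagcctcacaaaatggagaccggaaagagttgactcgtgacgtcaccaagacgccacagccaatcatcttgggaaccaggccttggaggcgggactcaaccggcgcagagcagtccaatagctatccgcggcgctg
Prim1: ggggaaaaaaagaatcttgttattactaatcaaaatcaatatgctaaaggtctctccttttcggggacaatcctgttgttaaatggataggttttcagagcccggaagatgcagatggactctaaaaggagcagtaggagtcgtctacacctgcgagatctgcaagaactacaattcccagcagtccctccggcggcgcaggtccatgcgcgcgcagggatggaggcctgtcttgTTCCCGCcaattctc
Rbl1: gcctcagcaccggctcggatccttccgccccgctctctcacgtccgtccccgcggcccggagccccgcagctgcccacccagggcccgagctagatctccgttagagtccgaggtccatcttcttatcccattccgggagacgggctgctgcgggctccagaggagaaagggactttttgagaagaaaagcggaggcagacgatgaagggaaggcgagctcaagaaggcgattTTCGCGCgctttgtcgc
Mcm5 held 3 matches, which begin 164, 152 and 149 bases before the start, the last 2 overlapping on opposite strands. Prim1 held 1 match, 15 bases before the start, and Rbl1 1 match, 17 bases before it. The motif was found in 2 of the 6 promoters available for the 7 called G1/S genes (33.3%), and the other called members with a promoter held no match. A match is only these letters in this window.

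Genes of mitosis had no call, and DNA repair and cyclin genes had 3. Of 44 genes of mitosis and cytokinesis 0 were called in limma, and their median difference was 0.03 log2. The largest difference among them was in Ube2c, an enzyme of the anaphase-promoting complex, with 6.95, 7.07 and 7.83 in the knockout and 6.97 and 5.69 in wild type (difference 0.95, SE 0.30, limma adjusted p = 0.077), and these values overlapped. Of 24 DNA repair genes 2 were called (8.33%, against 3.28% of all genes), both higher: Rad54b, a recombination factor, by 0.71 log2 (SE 0.17), and Pms2, a mismatch repair protein, by 0.38 (SE 0.11). Both lost their calls without KO3, WT4 or WT5. Of 13 cyclins, CDKs and G1 inhibitors 1 was called (7.69%): the CDK inhibitor Cdkn1a.

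Targets of p53 changed in both directions, with more higher than lower. Of 23 measured, 6 were called higher and 2 lower (34.8%, against 3.28% of all genes), and the median difference was 0.40 log2. Knockout arrays lay above both wild-type arrays for 11 of the 23, against 13.2% of all genes. The list's median difference from wild type was 0.32, 0.22 and 0.63 log2 in knockout replicates 1, 2 and 3. Without KO3 the counts were 4 and 2 and the median 0.26. Without WT4 they were 3 and 1.

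Phlda3, an inhibitor of AKT induced by p53, read 8.20, 8.11 and 8.55 log2 in the knockout and 7.16 and 7.09 in wild type. It rose by 1.16 log2 (SE 0.12, limma adjusted p = 6.34e-07), and all knockout arrays stood clear of wild type by a similar margin. Eda2r, a receptor of the TNF receptor family, read 4.57, 4.83 and 6.13 against 3.86 and 3.83 and rose by 1.33 (SE 0.23, limma adjusted p = 0.000857). Mdm2, the ubiquitin ligase that degrades p53, read 9.66, 9.63 and 9.89 against 9.03 and 9.26 and rose by 0.58 (SE 0.11, limma adjusted p = 0.00134). Here too the groups did not overlap. Polk, a translesion DNA polymerase, rose by 0.63 log2 (SE 0.12). Phlda3, Eda2r and Polk kept their calls in each fit without 1 array, and Mdm2 lost its call without WT4.

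Cdkn1a, which encodes the CDK inhibitor p21, read 8.09, 8.32 and 9.0 log2 in the knockout and 6.55 and 6.75 in wild type. The groups lay far apart, and the rise was 1.82 log2 or 3.53-fold (SE 0.52, limma adjusted p = 0.0492). That call was lost without KO2, KO3, WT4 or WT5. Gadd45a, a stress-induced growth arrest gene, went the other way with 5.31, 3.97 and 4.98 against 6.21 and 8.41 and fell by 2.56 (SE 0.45, limma adjusted p = 0.00088). Its wild-type arrays differed by over 2 log2, wild-type replicates 1 to 3 of the other run read 4.83 to 5.26, and the call was lost without WT5. Perp, a membrane protein of desmosomes, fell by 0.68 log2 (SE 0.15) and lost its call without WT4. Of 14 apoptosis genes linked to E2F1, 1 was called (7.14%, against 3.28% of all genes). This was the kinase gene Dapk2, which fell by 0.69 log2 (SE 0.17) and lost its call without KO2, KO3 or WT5.

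The 15 largest rises spanned 1.83 to 4.59 log2, among called genes whose arrays did not overlap. KO3 was the highest knockout array in 11 of them, and the knockout arrays lay above all 17 other arrays of the age in 12. The largest rise was in Cyp2b9, a cytochrome P450 that is normally female-biased in mouse liver. Cyp2b9 read 9.32, 8.85 and 13.19 log2 in the knockout and 4.95 and 6.77 in wild type, a rise of 4.59 or 24.1-fold (SE 1.30, limma adjusted p = 0.0464). Orm2, an acute phase protein of the orosomucoid family, read 11.80, 12.12 and 11.84 against 7.78 and 9.42, a rise of 3.32 (SE 0.71, limma adjusted p = 0.00607). Its 3 knockout arrays were level with each other, while wild-type arrays of the other run ranged from 6.50 to 11.28.

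In several large rises KO3 did not stand far from the other knockout arrays. Marco, a scavenger receptor of macrophages, read 9.09, 8.80 and 9.47 log2 against 6.35 and 6.18, a rise of 2.85 (SE 0.34, limma adjusted p = 4.36e-06). Dclre1a, a nuclease of DNA crosslink repair, read 10.58, 10.47 and 10.58 against 8.78 and 8.53, a rise of 1.88 (SE 0.24, limma adjusted p = 7.7e-06). Mmd2 read 8.79, 9.17 and 9.20 against 7.25 and 7.11, a rise of 1.88 (SE 0.23, limma adjusted p = 5.8e-06). In these 3 genes the gap between the groups exceeded the spread within either. Asns, which makes asparagine and is a target of the amino acid response, read 8.20, 9.54 and 9.47 against 6.99 and 6.32 and rose by 2.42 (SE 0.30). Cyp26a1, which degrades retinoic acid, read 11.87, 10.89 and 11.25 against 7.95 and 9.17 and rose by 2.77 (SE 0.54). Rarb, a retinoic acid receptor gene named because it was called from the 5 arrays alone, rose by 1.44 log2.

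In others KO3 was far ahead. Ddit4, an inhibitor of mTORC1 that p53 and hypoxia induce, read 10.01, 9.93 and 11.38 log2 against 7.48 and 7.80, a rise of 2.80 (SE 0.65). Cyp2b10, the classical target of the receptor CAR, read 8.39, 8.13 and 11.51 against 6.57 and 7.51, a rise of 2.30 (SE 0.66). Bmper, which binds bone morphogenetic proteins, read 5.77, 5.73 and 8.56 against 4.73 and 4.92, a rise of 1.86 (SE 0.43). All 3 had no overlap between the groups, as the rule for naming the largest rises required. Nipal1, a magnesium transporter of the NIPA family, rose by 3.00 log2 (SE 0.58), the peptide transporter Slc15a2 by 2.18 (SE 0.47), the secreted protein Tafa2 by 2.13 (SE 0.23) and Slc16a5, of the monocarboxylate transporter family, by 2.08 (SE 0.35). Nipal1, Marco, Asns, Tafa2, Slc16a5, Dclre1a and Mmd2 kept their calls in each fit without 1 array. Cyp2b9, Ddit4, Cyp2b10 and Mcm5 lost them without KO3, WT4 or WT5, Bmper without WT4 or WT5, Orm2 and Cyp26a1 without WT4, and Slc15a2 without WT5. Slc15a2 read 6.77 to 8.95 in the wild-type arrays of the other run.

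**Figure D2:**
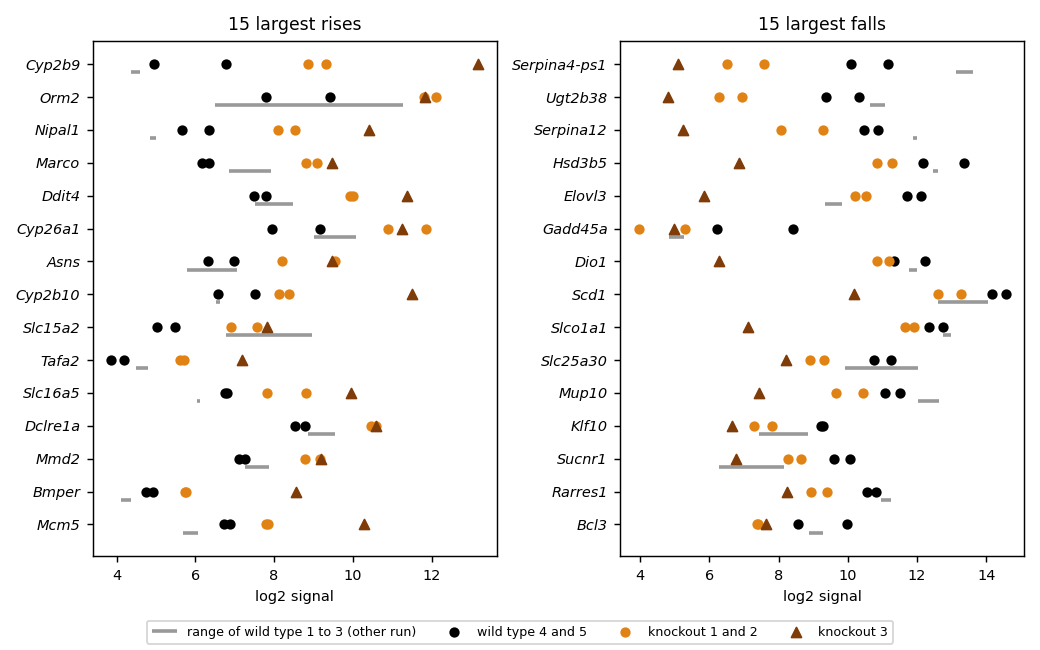
Log2 signal (horizontal) of the 15 largest rises and 15 largest falls in each knockout array (orange circles for replicates 1 and 2, brown triangles for 3) and wild-type replicates 4 and 5 (black), with the range of wild-type replicates 1 to 3 as a grey line. Knockout replicate 3 is the highest knockout array in 11 of 15 rises and the lowest in 13 of 15 falls.

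The 15 largest falls, also chosen among called genes whose arrays did not overlap, spanned -1.80 to -4.24 log2. They included genes of secreted proteins, steroid and lipid metabolism and transport. KO3 was the lowest knockout array in 13 of the 15. The largest was in Serpina4-ps1, a serpin pseudogene, with 7.58, 6.50 and 5.09 log2 in the knockout and 10.10 and 11.16 in wild type and fell by 4.24 (SE 0.79, limma adjusted p = 0.00176). Wild-type arrays of the other run read still higher, from 13.13 to 13.60. Ugt2b38, a glucuronosyltransferase, read 6.29, 6.94 and 4.82 against 10.32 and 9.37 and fell by 3.83 (SE 0.78, limma adjusted p = 0.00424). The values of both genes were far apart between the groups in every array of the run. Serpina4-ps1, Ugt2b38, Mup10, Orm2, Cyp2b9 and other members of such families have close relatives, and signal from a relative is uncertain.

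Dio1, the deiodinase that activates thyroid hormone, read 10.83, 11.18 and 6.27 log2 in the knockout and 12.22 and 11.34 in wild type and fell by 2.35 (SE 0.67, limma adjusted p = 0.048). Scd1, the desaturase that makes monounsaturated fatty acids, read 13.28, 12.61 and 10.19 against 14.17 and 14.57, with no overlap, and fell by 2.34 (SE 0.53, limma adjusted p = 0.0104). In Dio1, knockout replicates 1 and 2 came close to wild type and replicate 3 lay far below. Rarres1, a gene induced by retinoids in other cells, read 8.95, 9.39 and 8.23 against 10.55 and 10.80 and fell by 1.82 (SE 0.19, limma adjusted p = 3.16e-07). Bcl3, a nuclear protein of the NF-kB inhibitor family, read 7.37, 7.40 and 7.62 against 8.57 and 9.97 and fell by 1.80 (SE 0.25, limma adjusted p = 3.57e-05). Both kept their calls in each fit without 1 array. The mitochondrial carrier Slc25a30 fell by 2.19 log2 (SE 0.54), Mup10, a major urinary protein, by 2.11 (SE 0.46), the transcription factor Klf10 by 2.00 (SE 0.47) and the succinate receptor Sucnr1 by 1.93 (SE 0.49).

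The calls of Dio1, Slc25a30, Klf10 and Sucnr1 were lost without KO3, WT4 or WT5. That of Scd1 was lost without KO3 or WT5, those of Ugt2b38 and Mup10 without WT4, and that of Serpina4-ps1 without WT5. Of the 30 genes named by size, 9 kept their call in all 5 fits without 1 array, while 12 lost it without KO3, 17 without WT4 and 17 without WT5.

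Among sex-biased liver genes, 7 male-biased genes fell and 2 female-biased genes rose. In mice these programs follow the pattern of growth hormone release, which is pulsed in males. Of 20 male-biased genes measured, 19 had a lower mean in the knockout and the median difference was -1.30 log2. Calls were made for 7 (35%), all lower, against 1.57% of all genes, and all knockout arrays lay below both wild-type arrays in 13, against 13.2% of all genes. Of 16 female-biased genes, 15 had a higher mean and the median was 0.83 log2. Calls were made for 2 (12.5%), both higher, against 1.71% of all genes. All knockout arrays lay above both wild-type arrays in 13, against 13.2% of all genes.

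Hsd3b5, a steroid dehydrogenase of male liver, read 10.85, 11.26 and 6.85 log2 in the knockout and 13.36 and 12.18 in wild type and fell by 3.11 (SE 0.84, limma adjusted p = 0.0347). Elovl3, a fatty acid elongase, read 10.22, 10.51 and 5.85 against 11.72 and 12.10 and fell by 3.05 (SE 0.87, limma adjusted p = 0.0478). Slco1a1, an organic anion transporter, read 11.65, 11.91 and 7.11 against 12.74 and 12.35 and fell by 2.32 (SE 0.65, limma adjusted p = 0.042). In each, all knockout arrays lay below wild type, and replicate 3 lay far below replicates 1 and 2. Cyp2u1, a fatty acid hydroxylase, was lower in all 3 with 7.74, 7.67 and 7.15 against 9.48 and 8.59 and fell by 1.51 (SE 0.20, limma adjusted p = 2.29e-05). Serpina12, the adipokine vaspin, fell by 3.14 log2 (SE 0.70) and C6, a complement component, by 1.5 (SE 0.43). On the female-biased side, besides Cyp2b9, Slc22a26 rose by 1.42 log2 (SE 0.38). Sult2a2, a sulfotransferase, read 5.31, 4.21 and 11.53 against 3.69 and 3.91 and was not called (difference 3.21, limma adjusted p = 0.126).

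Much of the size came from KO3. The male-biased genes had median differences from the wild-type mean of -0.61, -0.36 and -2.55 log2 in knockout replicates 1, 2 and 3, and the female-biased genes 0.41, 0.43 and 1.33. Without KO3 the male-biased median was -0.51 with 3 calls and the female-biased median 0.50 with 0 calls. Without WT4 there were 1 and 0 calls, and without WT5 there were 2 and 0. Leaving out KO1 or KO2 instead gave 12 and 5 calls in each case. Cyp2u1 kept its call in each fit, Slco1a1 lost it without WT4 or WT5, and Hsd3b5, Elovl3, Serpina12, C6 and Slc22a26 lost it without KO3, WT4 or WT5.

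None of the 4 sex chromosome genes measured was called. In 1 of them all knockout arrays lay above both wild-type arrays, and in 1 all lay below, against 13.2% of all genes in each direction. Xist, the X inactivation RNA, read 5.90, 5.86 and 5.88 log2 in the knockout and 6.04 and 5.67 in wild type. The Y-linked gene Eif2s3y read 9.03, 8.50 and 8.79 against 8.91 and 9.27, and these values overlapped. The largest difference was in Uty (0.37 log2, SE 0.12, limma adjusted p = 0.0886). Of 15 genes of the growth hormone and IGF axis 2 were called (13.3%, against 3.28% of all genes), both lower. Igfals, the acid-labile subunit that carries IGF1 in blood, fell by 0.94 log2 (SE 0.24), and Ghr, the growth hormone receptor, fell by 0.53 (SE 0.14). The list's median was -0.53 log2, -0.26 without KO3 and -0.09 without WT5. Leaving out KO3 or WT4 ended both calls, and leaving out WT5 ended that of Ghr. Igf1 differed by 0.03 log2, and the STAT5 targets Cish and Socs2 ranged from 8.62 to 11.03 and from 8.90 to 9.90 between the wild-type arrays.

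**Figure D3:**
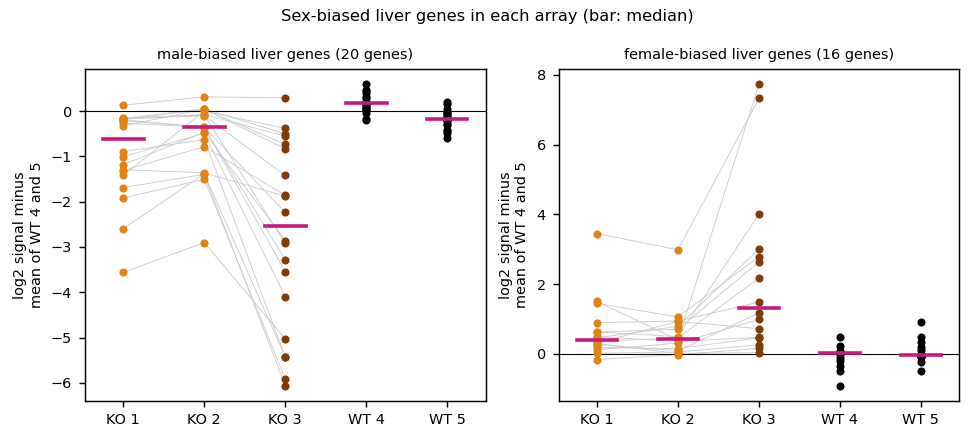
Log2 signal of each of 20 male-biased and 16 female-biased liver genes minus its mean over wild-type replicates 4 and 5 (vertical), by array. Bars are medians and grey lines join a gene across knockout arrays; the male-biased medians are -0.61, -0.36 and -2.55 and the female-biased 0.41, 0.43 and 1.33 in knockout replicates 1 to 3.

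Drug-metabolising enzymes changed in both directions. Of 37 cytochrome P450 and other phase I genes 4 were called higher and 2 lower (16.2%, against 3.28% of all genes), with a median of -0.02 log2. Fmo1, a flavin monooxygenase, read 12.31, 12.27 and 12.43 in the knockout and 11.51 and 11.71 in wild type, a rise of 0.73 (SE 0.17, limma adjusted p = 0.011), with no overlap. Cyp2c38 rose by 1.33 log2 (SE 0.36) and Cyp2c70, which makes muricholic acids in mice, fell by 0.76 (SE 0.21). Of 22 conjugating enzymes 1 was called higher and 4 lower (22.7%). Sult1a1, a phenol sulfotransferase, rose by 0.94 log2 (SE 0.20). Ugt2a3, a glucuronosyltransferase, read 11.89, 11.90 and 11.61 against 12.40 and 12.38 and fell by 0.59 (SE 0.10, limma adjusted p = 0.000904), and its groups were well apart. Nat8, an acetyltransferase, fell by 1.73 log2 (SE 0.38) and Ugt2b34 by 0.27 (SE 0.08). Of 26 glutathione and NRF2 genes 1 was called (3.85%), Gss, the glutathione synthetase, which lies near E2f1.

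Ugt2a3 kept its call in each fit without 1 array. Those of Cyp2c38 and Cyp2c70 were lost without KO3, WT4 or WT5, that of Ugt2b34 also without KO2, that of Nat8 without KO3 or WT5, and those of Fmo1 and Sult1a1 without WT4. Without WT4 none of the phase I genes was called higher and 1 lower. Without WT5 the phase I counts were 1 and 1, as they were without KO3. Of the conjugating enzymes 1 was called higher and 2 lower without KO3 and without WT5, and 0 and 2 without WT4.

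In bile acid synthesis, 2 of 22 genes were called higher and 1, Slco1a1, lower (13.6%, against 3.28% of all genes). Cyp7a1, the rate-limiting enzyme, read 11.995, 12.76 and 11.81 log2 in the knockout and 10.76 and 9.95 in wild type, a rise of 1.83 or 3.57-fold (SE 0.37, limma adjusted p = 0.00385). Wild-type arrays of the other run read 11.25 to 12.40, which overlaps the knockout, and the call was lost without WT5. Akr1d1, a steroid reductase of the pathway, read 11.84, 11.92 and 12.34 against 10.95 and 11.17, a rise of 0.97 (SE 0.20, limma adjusted p = 0.00532), lost without WT4. Both genes had groups that did not overlap.

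Cholesterol synthesis genes had a median difference of 0.52 log2 over 20 measured, with 16 of them higher in mean. The 2 called (10%, against 3.28% of all genes) were both higher. Here KO3 was the array nearest wild type: the medians were 0.63, 1.00 and 0.07 log2 in knockout replicates 1, 2 and 3. Fdft1, squalene synthase, read 12.40, 12.68 and 11.54 in the knockout and 10.54 and 10.82 in wild type, a rise of 1.53 (SE 0.28, limma adjusted p = 0.00135), and it kept its call in each fit without 1 array. Msmo1, a sterol methyl oxidase, read 13.40, 13.72 and 12.92 against 11.99 and 12.20, a rise of 1.25 (SE 0.33, limma adjusted p = 0.0313), lost without KO1, KO2, WT4 or WT5. Without KO3 there were 5 calls and the median was 0.83.

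Fatty acid and triglyceride synthesis leaned lower. Of 24 genes, 19 had a lower mean and the median was -0.30 log2. The 2 called (8.33%, against 3.28% of all genes) were Scd1 and Dgat2, which makes triglycerides. Dgat2 read 12.59, 12.69 and 12.64 in the knockout and 12.97 and 12.94 in wild type and fell by 0.31 (SE 0.08, limma adjusted p = 0.0318) with no overlap, lost without KO1, KO3, WT4 or WT5. The medians were -0.19, -0.13 and -0.65 log2 in knockout replicates 1 to 3. The median was -0.15 without KO3, and without WT5 it was 0.02, each with 0 calls in limma. Without WT4 it was -0.65 with 4 calls, and there were 4 calls without KO1 and 5 without KO2. Of 28 PPAR alpha targets 1 was called, a share (3.57%) near that of all genes. This was Cd36, the fatty acid transporter, with 10.62, 10.58 and 11.58 against 8.79 and 9.99. Cd36 rose by 1.54 (SE 0.30, limma adjusted p = 0.00312), a call lost without WT4. Its 3 probe sets all rose, by 1.30 to 1.76 log2.

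Genes of amino acid breakdown and the urea cycle were mostly higher where called. Of 30 genes 7 were called higher and 1 lower (26.7%, against 3.28% of all genes), and the median was 0.17 log2. Hal, histidine ammonia-lyase, read 12.92, 12.83 and 13.50 in the knockout and 12.24 and 12.14 in wild type, a rise of 0.89 (SE 0.14, limma adjusted p = 0.000259). Asl, argininosuccinate lyase of the urea cycle, read 13.39, 13.38 and 14.18 against 12.64 and 13.14, a rise of 0.76 (SE 0.15, limma adjusted p = 0.00398). Both had higher values in all knockout arrays. Hgd, of tyrosine breakdown, rose by 0.36 log2 (SE 0.08). Haao, of the kynurenine pathway, fell by 0.32 (SE 0.09). Asns and Hal kept their calls in each fit without 1 array, Asl and Hgd lost theirs without WT4, and Haao when any one knockout array or WT5 was left out. The list had 4 calls, all higher, without KO3, 2 higher and 1 lower without WT4, and 5 higher without WT5. KO3 was the highest knockout array for 24 of the 30.

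Of 18 genes of gluconeogenesis, glycolysis and glycogen 1 was called (5.56%, against 3.28% of all genes). Ppargc1a, a coactivator induced by fasting, read 8.00, 8.90 and 9.87 log2 in the knockout and 6.95 and 7.74 in wild type, a rise of 1.58 (SE 0.37, limma adjusted p = 0.0127), lost without KO3 or WT4. The glucocorticoid and metallothionein genes had a median difference of 1.04 log2 over 13, and 10 lay above both wild-type arrays against 13.2% of all genes. Only 1 was called (7.69%), Cdkn1a. The medians from wild type were 0.41, 0.54 and 1.59 in KO1, KO2 and KO3, and the list's median was 0.68 without KO3 and 0.59 without WT4. Mt2, a metallothionein, read 13.91, 13.78 and 13.89 against 9.94 and 13.05, and Lcn2, an acute phase protein, 11.01, 10.87 and 9.82 against 6.33 and 9.08. In both the wild-type arrays differed by over 2 log2, and neither was called (limma adjusted p of 0.364 and 0.0958).

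Among 23 genes of the unfolded protein response, which serves protein folding in the endoplasmic reticulum, 3 were called lower and 1 higher (17.4%, against 3.28% of all genes). Of the 23, 19 had a lower mean, 14 lay below both wild-type arrays against 13.2% of all genes, and the median was -0.46 log2. The knockout arrays were alike here, with medians of -0.49, -0.39 and -0.43. Xbp1, the transcription factor that expands the endoplasmic reticulum, read 12.41, 12.20 and 11.91 in the knockout and 12.90 and 13.37 in wild type and fell by 0.96 (SE 0.16, limma adjusted p = 0.000717). The chaperone gene Calr fell by 0.46 log2 (SE 0.10) and Pdia6, a disulfide isomerase, by 0.58 (SE 0.15). Ddit3, which encodes the stress factor CHOP, was the 1 member called higher, with 9.08, 8.90 and 8.87 against 7.22 and 7.81, a rise of 1.43 (SE 0.29, limma adjusted p = 0.00457). Hspa5, the main chaperone, read 12.17, 12.16 and 12.47 against 12.64 and 13.17 and was not called (difference -0.64, limma adjusted p = 0.0553). The calls lost were that of Xbp1 without WT5, of Ddit3 without WT4, of Calr without KO3 or WT4, and of Pdia6 without KO3, WT4 or WT5.

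Of 24 acute phase proteins 3 were called (12.5%, against 3.28% of all genes), all higher, and the list's median was 0.10 log2. Orm3, a relative of Orm2, read 8.10, 8.47 and 8.52 in the knockout and 6.19 and 7.02 in wild type, a rise of 1.76 (SE 0.29, limma adjusted p = 0.0006), and kept its call in each fit without 1 array. Itih3, an inhibitor heavy chain, rose by 0.49 log2 (SE 0.13) and lost its call without KO3 or WT5. Of 33 complement and coagulation genes 4 were called (12.1%). Called higher was 1, Pros1 or protein S, by 0.47 log2 (SE 0.11). Called lower were C8g at -0.32 (SE 0.08), Proc or protein C at -0.34 (SE 0.08) and C6. The list had 0 calls in limma without KO3 and without WT4, and 1, lower, without WT5.

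Interferon-stimulated genes are listed because interferon switches on Mx1-Cre. Of 32 interferon-stimulated genes 1 was called higher, Herc6, an ISG15 ligase, by 0.56 log2 (SE 0.15), and 1 lower, Bst2, which encodes tetherin, at -0.62 (SE 0.18), in all 6.25% against 3.28% of all genes. The median was 0.02 log2, and the list mean was 8.00, 7.81 and 7.23 in the knockout and 7.72 and 7.56 in wild type, with KO3 the lowest. Herc6 lost its call without KO1, KO2 or WT5, and Bst2 without KO3, WT4 or WT5. Of 18 interferon gamma response genes and of 5 MHC class I genes 0 were called in limma. Cxcl10, the chemokine with the largest difference, read 7.43, 6.68 and 7.19 against 7.07 and 9.15 (difference -1.01, SE 0.30, limma adjusted p = 0.0561), and its groups overlapped. The sources used here do not give how or when the Cre was induced.

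Of 9 MHC class II genes 2 were called (22.2%, against 3.28% of all genes), both lower. H2-Eb1, a beta chain, read 7.88, 8.04 and 7.60 log2 in the knockout and 8.38 and 8.58 in wild type and fell by 0.64 (SE 0.13, limma adjusted p = 0.00475). Cd74, the invariant chain, read 8.70, 8.27 and 8.08 against 9.0 and 9.43 and fell by 0.87 (SE 0.23, limma adjusted p = 0.0282). Neither overlapped. H2-Eb1 lost its call without WT5, and Cd74 without KO2, KO3 or WT5. MHC haplotypes differ between inbred strains, and the part of strain in these values was not tested. Of 26 genes known to vary between inbred strains 2 were called (7.69%, against 3.28% of all genes), both higher: Cyp2c38 and Cd5l.

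Macrophage genes were the cell type markers with the most calls. Of 18 macrophage and Kupffer cell genes, 5 were called higher and 0 lower (27.8%, against 3.28% of all genes). All knockout arrays lay above both wild-type arrays in 11, against 13.2% of all genes, and the median was 0.47 log2. Beside Marco, these were Adgre1, a surface receptor of macrophages, Cd68, a lysosomal glycoprotein, Spic, a transcription factor of red pulp and iron-recycling macrophages, and Cd5l, a secreted macrophage protein. Adgre1 read 8.38, 8.38 and 8.57 in the knockout and 7.5 and 7.88 in wild type, a rise of 0.76 (SE 0.18, limma adjusted p = 0.0118). Cd68 rose by 0.85 log2 (SE 0.21), Cd5l by 0.84 (SE 0.24) and Spic by 0.67 (SE 0.14). Of the 18 genes, 15 had a higher mean in the knockout and 3 a lower one. The 13 not called lay between -0.85 and 0.77 log2. Among these were Clec4f (-0.02) and Timd4 (-0.50), named after their values were seen.

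The mean of the 18 macrophage genes was 8.56, 8.58 and 8.92 log2 in the knockout and 8.04 and 8.36 in wild type. Without KO3, without WT4 and without WT5 there were 2 calls each, with medians of 0.39, 0.26 and 0.67. The call of Adgre1 was lost without KO3 or WT4, that of Spic without WT5, that of Cd68 without KO2, KO3, WT4 or WT5, and that of Cd5l when any one of the 5 arrays was left out.

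**Figure D4:**
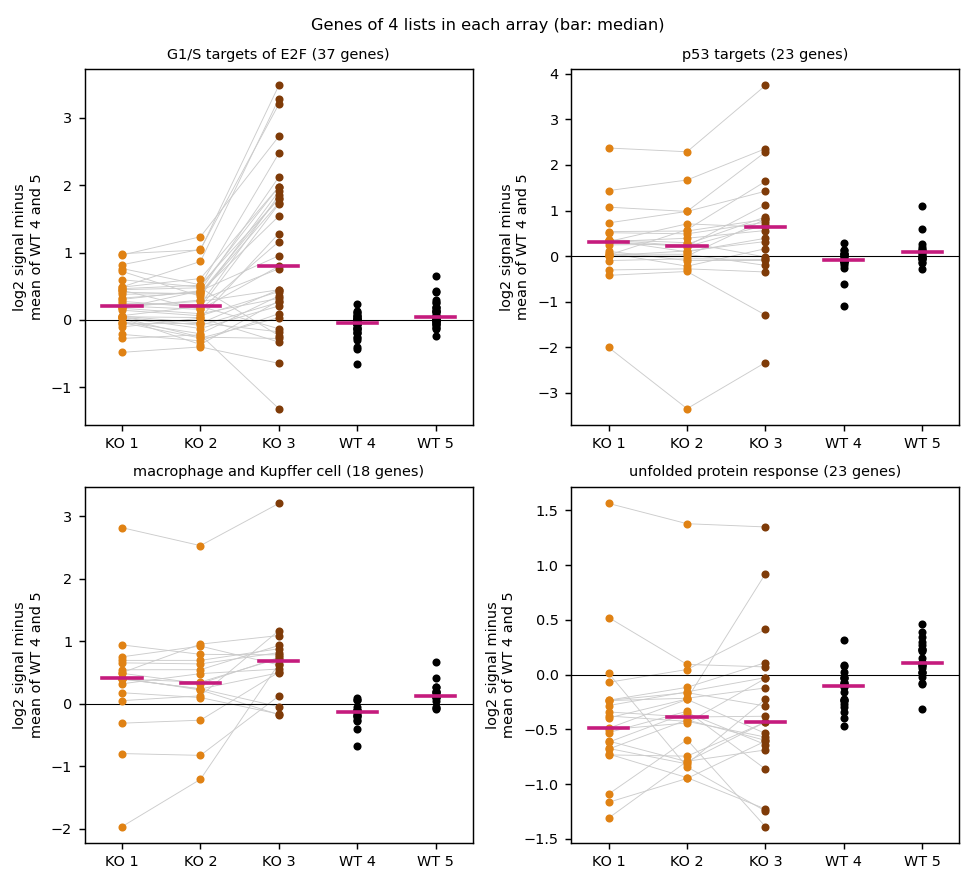
Log2 signal of each gene minus its mean over wild-type replicates 4 and 5 (vertical), by array, for 37 G1/S targets, 23 p53 targets, 18 macrophage genes and 23 unfolded protein response genes. Bars are medians; knockout replicate 3 has the highest median in the first 3 lists (0.80, 0.63 and 0.68 log2), and the unfolded protein response medians are alike (-0.49, -0.39 and -0.43).

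Other cell type lists had up to 3 calls each. The share called was 15% of sinusoidal endothelial genes, 9.09% of periportal and of dendritic cell genes, 8.33% of hepatocyte and 7.69% of erythroid genes, against 3.28% of all genes. For exocrine pancreas genes it was 7.69%, for neutrophil and monocyte genes 7.14%, and for pericentral and for B cell genes 6.67%. Of 20 sinusoidal endothelial genes Lyve1, a hyaluronan receptor, read 8.93, 8.62 and 8.94 log2 in the knockout and 6.56 and 7.74 in wild type, a rise of 1.68 (SE 0.36, limma adjusted p = 0.00626), while the vascular receptors Tek and Tie1 fell by 0.92 (SE 0.23) and 0.48 (SE 0.13). Lyve1 lost its call without WT4, Tek without KO1 or WT5, and Tie1 when any one of the 5 arrays was left out. Single calls were made for Ngp, a granule protein of neutrophil precursors (0.70 log2, SE 0.20), among 14 neutrophil and monocyte genes, for Car2, a carbonic anhydrase (0.78, SE 0.16), among 13 erythroid genes, for Hal among 11 periportal genes and for Lect2, a secreted protein (-0.73, SE 0.19), among 15 pericentral genes. Apoa1, the main HDL protein, was the 1 of 12 hepatocyte genes called, at -0.17 log2 (SE 0.04). Xbp1 and Bst2 are also on the B cell and dendritic cell lists and were the single calls there. Cela1, the elastase on the exocrine pancreas list, read 9.49, 9.46 and 9.12 against 10.93 and 10.44 and fell by 1.33 (SE 0.16, limma adjusted p = 4.23e-06). The other 12 pancreas genes lay between -0.26 and 0.22 log2 and were not called.

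Of 25 matrix and fibrosis genes 1 was called higher and 1 lower (8% in all, against 3.28% of all genes). Timp1, an inhibitor of metalloproteinases, read 6.22, 6.61 and 5.82 log2 in the knockout and 5.45 and 5.27 in wild type, a rise of 0.85 (SE 0.14, limma adjusted p = 0.000495). Acta2, smooth muscle actin, read 6.73, 7.35 and 7.35 against 7.82 and 9.60 and fell by 1.57 (SE 0.27, limma adjusted p = 0.000716). The groups of both were apart, but WT5 stood far above replicate 4 in Acta2, and its call was lost without replicate 5. Timp1 and Cela1 kept their calls in each fit without 1 array. Of 16 fetal and progenitor genes 1 was called (6.25%), the imprinted gene Mest. It rose by 0.79 (SE 0.15) and lost its call without WT5, as did Car2. The calls of Ngp, Apoa1 and Lect2 were also lost, that of Ngp without KO2, WT4 or WT5, that of Apoa1 without KO1 or WT4, and that of Lect2 without KO3, WT4 or WT5.

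In 15 of the 53 gene lists, with 271 measured members between them, 0 were called in limma. Their medians lay between -0.16 and 0.18 log2. They included 32 genes of the respiratory chain, 26 of the proteasome, 20 ribosomal proteins, 19 clock genes, 14 heat shock genes, 20 immediate early genes, 23 T and NK cell genes and 15 stellate cell genes. Of 19 regulators of polyploidy 2 were called (10.5%, against 3.28% of all genes), Mdm2 and Cdkn1a, which belong also to the p53 list.

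**Figure D5:**
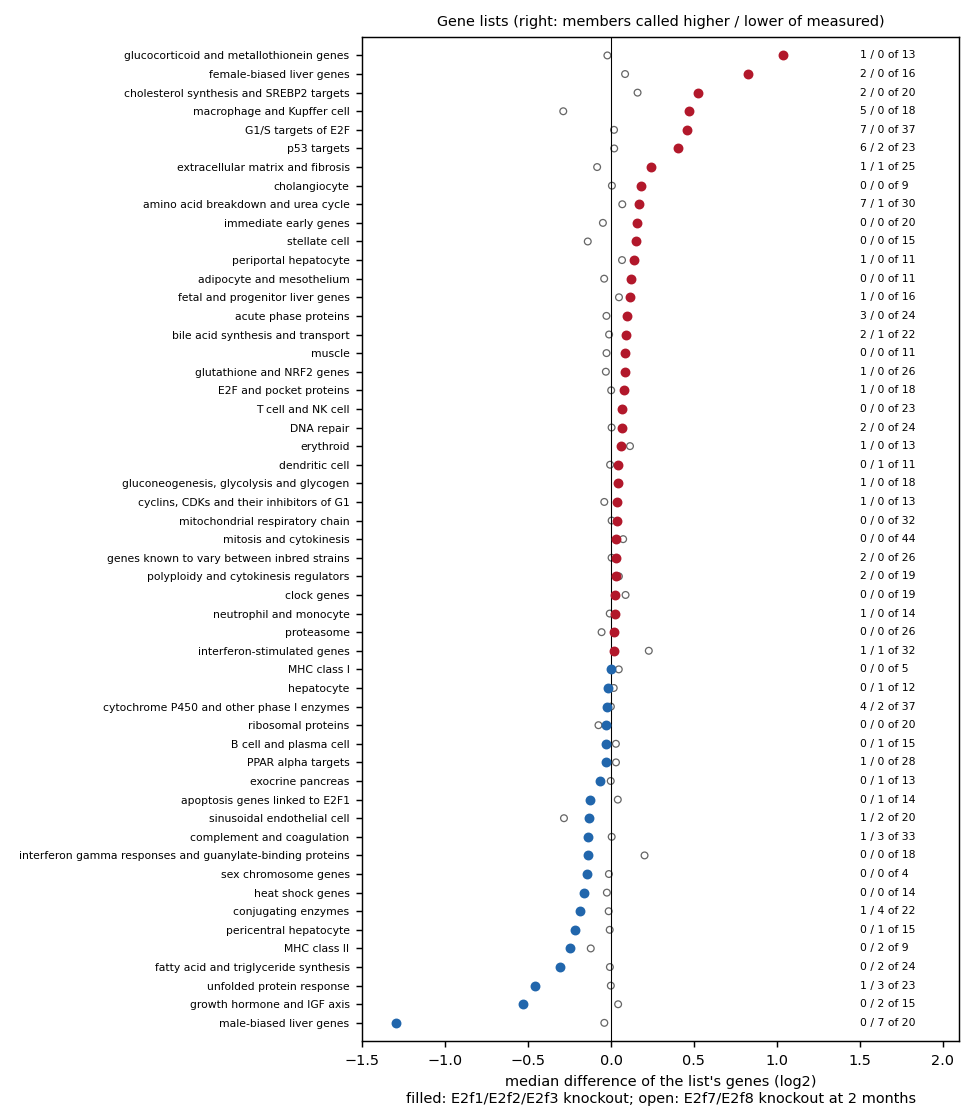
Median log2 difference (horizontal) of 53 gene lists in the E2f1/E2f2/E2f3 knockout (filled) and the E2f7/E2f8 knockout at 2 months (open), each against wild type of its own run, with the members called in the first at the right. The filled medians run from -1.30 (male-biased genes) to 1.04 (glucocorticoid and metallothionein genes).

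Genes next to the targeted loci can carry flanking DNA of the strain in which an allele was made. Of the 25 measured genes on each side of E2f1, 3 were called higher and 3 lower (12% of 50), against 0 of 50 around E2f2 and 2 of 50 (4%) around E2f3. Over all 150 neighbours this was 5.33%, against 3.28% of all genes. Cdk5rap1, an RNA-modifying enzyme near E2f1, read 8.01, 7.82 and 7.81 log2 in the knockout and 8.52 and 8.95 in wild type and fell by 0.85 (SE 0.14, limma adjusted p = 0.000466), and kept its call in each fit without 1 array. Edem2, of protein quality control, fell by 0.47 (SE 0.11), BC029722 fell by 0.65 (SE 0.15) and Gss rose by 0.42 (SE 0.12). Near E2f3 the serpins Serpinb1a and Serpinb9 rose by 1.29 (SE 0.26) and 0.61 (SE 0.15). The calls of Edem2 and BC029722 were lost without WT5, that of Gss without KO3 or WT5, that of Serpinb1a without WT4 and that of Serpinb9 without WT4 or WT5. The part of flanking DNA in these values was not tested.

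Other probe sets mostly moved the same way. Of the called genes, 308 had further probe sets, 544 in all, and 451 of these (82.9%) differed in the direction of the gene, 111 passed the test in that direction and 0 in the opposite one. Brca1 had 2 further probe sets that rose, by 1.04 and 1.40 log2, and 1 that did not pass (0.13). Asns had a further set that rose by 2.92. Further sets also passed for other named genes, such as Marco (1.88 log2) and Serpina4-ps1 (-4.05 and -4.04). In Chek1, Rbl1, Slc15a2, Serpinb1a and Dclre1a, among others, no further set passed. The differences were 1.19, 0.08, 0.07 and -0.04 log2 for Chek1, and 0.23, 0.10 and 0.10 for Rbl1. They were 0.15 and -0.08 for Slc15a2, -0.02 for Serpinb1a, and 0.37 and 0.28 for Dclre1a, whose set used rose by 1.88. E2f8, which was not called, differed by -0.80 in the set used and by 0.15 in its further set.

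The effects of the E2f1/E2f2/E2f3 knockout and of the E2f7/E2f8 knockout differed at the same age. In the E2f7/E2f8 knockout 2 genes were called (0.011%) and 739 had an unadjusted p under 0.05, and 0 of the 2 were among the 597. The difference between both effects was tested directly, and as each was set against its own wild-type arrays they share no controls. It passed for 122 genes (0.671%), 55 with the higher effect in the E2f1/E2f2/E2f3 knockout and 67 with the lower. Of the 122, 118 were also called in the E2f1/E2f2/E2f3 knockout, against 3.28% of all genes. That effect is part of the difference tested, so the overlap is no separate support. The largest were Orm2, at 3.32 log2 against -1.35 in the E2f7/E2f8 knockout (difference 4.67, SE 0.92, limma adjusted p = 0.0105), and Marco, at 2.85 against -0.58 (difference 3.43, SE 0.45, limma adjusted p = 5.91e-05). Of the p53 targets 4 of 23 and of the macrophage genes 4 of 18 had such a difference. The median of the G1/S list was 0.02 log2 in the E2f7/E2f8 knockout and 0.46 here, and 0 of its 37 genes had a difference that passed. Cre line, strain and normalization run differed along with the targeted genes in this comparison and cannot be told apart from them.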

How the data were processed

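Liver RNA was hybridised to Affymetrix arrays. The authors deposited log2 signals made with RMA, per the submitters' processing notes, for 45101 probe sets, and the values showed 3 normalization runs. RMA normalizes arrays together, so values of different runs are not directly comparable. Of the probe sets, 34945 had 1 gene symbol, and the one with the highest mean over 35 arrays stood for each of 18193 genes.

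Group means over all 35 arrays, with a term for the second run at 2 months, were fitted with limma 3.58.1 (R 4.3.3, lmFit and eBayes with an intensity trend, 25 residual degrees of freedom), and p-values were adjusted by Benjamini-Hochberg over all 18193 genes at 0.05. The knockout was thereby set against wild-type replicates 4 and 5. The fit was also run on simulated data as a check of the code, which is no test of the results above. The arrays' number limits the precision. Alternatives changed the arrays, the run term, the normalization, the filter on dim genes, the probe set rule, the variance trend, array weights and a replicate block.

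By rule, the genes named were E2f1 to E2f8 and the 15 largest rises and falls among called genes without overlap. Clone and predicted names were left out of the rises and falls. Up to 4 called members of each list and direction were named by adjusted p. Where a list had no call, the member with the largest difference was named. The rules also gave 6 called neighbours of the targeted genes, and 8 genes each way for the difference between both knockouts. Further genes were named outside these rules after their values were seen. They include Sult2a2, Hspa5, Mt2, Lcn2, Igf1, Cish, Socs2, Xist, Eif2s3y, Clec4f, Timd4, Rarb and the G1/S members marked as such. The comparison, its members and the gene lists were chosen with earlier results of these data known. Counts of list members under each setting were added after seeing the data.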

Additional observations from a re-analysis of the deposited data

Results flagged for a closer look

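The effect of the E2f1/E2f2/E2f3 knockout differed from that of the E2f7/E2f8 knockout at 2 months for 122 genes. This was by limma's test of the difference between both effects (adjusted p under 0.05). Cre line, strain and normalization run differed along with the targeted genes and cannot be told apart from them. The 8 with the largest positive difference were Orm2 (4.67 log2), Marco (3.43), Cyp26a1 (3.30), Asns (2.87), Orm3 (2.16), Cyp7a1 (2.14), Dclre1a (2.13) and Tafa2 (1.99). Each of these was called higher in the E2f1/E2f2/E2f3 knockout. In the E2f7/E2f8 knockout their differences lay between -1.35 (Orm2) and 0.14 (Tafa2) and none was called.

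The 8 with the largest negative difference were Gadd45a (-3.18 log2), Mup10 (-2.60), the water channel gene Aqp8 (-2.56), Bcl3 (-1.91), Sdr9c7 (-1.86), the kinase gene Pim1 (-1.82), Rarres1 (-1.72) and Obp2a (-1.58). In the E2f1/E2f2/E2f3 knockout Aqp8 fell by 1.57 log2 (SE 0.44), Sdr9c7 by 1.51 (SE 0.28), Pim1 by 1.36 (SE 0.22) and Obp2a by 1.30 (SE 0.25). Aqp8 read 9.68, 9.56 and 7.20 in the knockout and 9.95 and 10.82 in wild type, with KO3 far below the other knockout arrays. Obp2a read 4.40, 4.96 and 4.78 against 5.85 and 6.18. Wild-type arrays of the other run read 7.98 to 8.49 for Aqp8 and 4.68 to 5.15 for Obp2a, which overlaps the knockout range in both. Pim1 read 7.01, 7.14 and 7.19 in the E2f1/E2f2/E2f3 knockout and 8.20 and 8.75 in wild-type replicates 4 and 5, with no overlap.

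Of these 16 differences 8 kept their call with any 1 array left out, and 8 lost it at least once. Without wild-type replicate 4 the calls of Orm2 (3.85 log2), Cyp26a1 (2.69), Mup10 (-2.39) and Sdr9c7 (-1.51) were lost. Without wild-type replicate 5 those of Cyp7a1 (1.74), Gadd45a (-2.08), Mup10 (-2.81), Aqp8 (-2.12) and Obp2a (-1.42) were lost. Without wild-type replicate 3 those of Cyp26a1 (2.96), Mup10 (-2.44) and Aqp8 (-2.42) were lost. The calls of Cyp7a1 and Mup10 were also lost without some of the other arrays. With the replicate number as a block 9 of the 16 lost their call.

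Of 10092 probe sets without a single gene symbol, which entered no comparison of genes, 131 were called in the E2f1/E2f2/E2f3 knockout (1.3%), 90 higher and 41 lower.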

How the results depend on the processing

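Genes called numbered 597, and 4 from the 5 arrays alone, 6167 without the run term, 189 with array weights and 245 to 767 when 1 array was left out. The difference between both knockouts passed for 122 genes, and for 10351 without the run term, 76 with array weights and 74 to 218 when 1 array was left out. With the replicate number as a block the counts were 182 and 42. Knockout replicates 1 to 3 and wild-type replicates 4 and 5 share no number, so the block acts through other groups and pairs no samples here. Without the run term H2-Eb1 was 0.59 and Cdk5rap1 0.44 log2, both reversed. The cause of these changes was not tested, beyond that the 5-array fit has 3 residual degrees of freedom and that the fit without a run term sets the knockout against arrays of another run. Without wild-type replicate 4, 38.2% of calls were higher, against 52.1%.

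The other settings (20 arrays, quantile normalization, no dim genes, mean of probe sets, no trend) gave 505 to 594 calls. Of 101 named genes called, 20 kept their call with each of the 5 arrays left out in turn, and 99 lost it in the 5-array fit. The medians of 32 of 53 lists moved beyond their spread in at least 1 setting.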
